A study of Homo sapiens with 10 samples.

Results

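The tumour necrosis factor (TNF) superfamily and its receptors were examined as 41 genes, 16 ligands and 25 receptors, in a list of accessible chromatin regions from MDA-MB-231 cells. The line was established from a human breast cancer and is triple-negative. The genes were taken by membership of the ligand and receptor families, and a peak counted as theirs where the deposited list assigns it to the gene, by Ensembl identifier, as the one with the nearest transcript. By this rule 40 of the 41 genes had a peak, against 85.9% of all protein-coding genes, and 166 of the 161934 peaks were theirs. The series holds 10 ATAC-seq libraries, 5 from ARID1A knockout cells and 5 from control cells of the same line, each numbered 1 to 5. ATAC-seq uses the Tn5 transposase to cut and tag DNA that is not packed away, and the ARID1A protein binds DNA as part of BAF, a form of the SWI/SNF complex that moves nucleosomes. The labels give no treatment, no time and no method for the knockout, and do not say whether the knockout line was 1 clone or whether replicates were separate cultures. The list covers the whole series and has 0 columns with a value per library, so no peak is tied to a genotype, the depth per library is unknown, and the difference between ARID1A knockout and control cells at these genes could not be computed.

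TNF ligands are mostly trimeric proteins held in the membrane of the cell that makes them or cut free from it, and they act by drawing receptor chains together on the target cell. Death receptors carry a death domain inside the cell that recruits adaptors such as FADD and TRADD, through which caspases or kinases are engaged. Decoy receptors bind ligand without a full signalling tail, and the remaining receptors recruit TRAF proteins and turn on the NF-kappaB pathways. In epithelial tumours the receptors for TNF, FAS ligand and TRAIL are widely present, while many ligands and the receptors that co-stimulate T and B cells are best known from lymphoid and myeloid cells.

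A start peak is a peak assigned to a gene and lying within 1000 bases of one of its annotated transcript starts. Such a peak was present at 29 of the 41 genes (70.7%), against 71.5% of all 19974 protein-coding genes. Genes that could not be paired with the list count as having none, and among genes with an assigned peak the count was 29 of 40 members (72.5%), against 83.2% of protein-coding genes, so the standing of the family depends on which genes it is set against. The classes of the family were not alike. The 6 other receptors and the 3 decoy receptors all had a start peak, as did 6 of the 7 death receptors (85.7%). Of the 9 lymphoid receptors 5 had one (55.6%), and of the 16 ligands 9 had one (56.2%). All receptors reached 20 of 25 (80.0%). The members are among all protein-coding genes here and below. Genes are not replicates of each other and no test was made between the classes.

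A stricter count required the peak to cover the start base itself. It kept 25 of the 41 genes (61.0%), against 63.7% of all protein-coding genes, and 25 of the 40 with an assigned peak (62.5%), against 74.2%. The death receptors, decoy receptors and other receptors stayed at 6, 3 and 6 genes, and the ligands stood at 8. The lymphoid receptors stood at 2 of 9 (22.2%), so that most of their start peaks lay beside a start and not over it. With the window widened to 3000 bases, 34 genes had a peak (82.9%), against 77.0% of all protein-coding genes. The ligands then stood at 13 of 16 (81.2%), close to all receptors at 21 of 25 (84.0%). The death receptors stood at 6 of 7 (85.7%) and the lymphoid receptors at 6 of 9 (66.7%). Counting any peak near the outermost RefSeq start, whatever gene it is assigned to, gave 27 genes (65.9%), against 70.7%, and 26 genes (63.4%), against 73.2%, with the starts of the RefSeq promoter table in its place. At the outermost start the death receptors stood at 4 of 7 (57.1%), the lymphoid receptors at 4 of 9 (44.4%) and the ligands at 10 of 16 (62.5%). With the starts of the promoter table the death receptors stood at 5 of 7 (71.4%), the lymphoid receptors at 4 of 9 (44.4%) and the ligands at 8 of 16. The order of death receptors and ligands was thus turned round at the outermost start alone among the definitions tried, and there FAS and TNFRSF25, with peaks at starts inside the RefSeq gene, do not count and LTA does.

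A body peak is one assigned to the gene that the list classes as exon, intron or untranslated region, which leaves out everything within 3000 bases of a start. Body peaks were assigned to 22 of the 41 genes (53.7%), against 47.0% of all protein-coding genes. Among genes with an assigned peak the shares were 55.0% of members, against 54.8%. By class these were 4 of 7 death receptors, 2 of 3 decoy receptors, 5 of 9 lymphoid receptors, 3 of 6 other receptors and 8 of 16 ligands. Body peaks that the list places in an exon or intron of the member itself, or in an untranslated region within its span, were found at 18 genes (43.9%), against 39.4%. By class these were 3 of 7 death receptors, 2 of 3 decoy receptors, 4 of 9 lymphoid receptors, 3 of 6 other receptors and 6 of 16 ligands. FAS is among them through a peak 14638 bases upstream of its listed start. TNFRSF1A and TNFRSF17 are not, since each has 1 body peak and it lies in an exon of another gene. The list places all 4 body peaks of TNFSF18 and all 3 of TNFSF8 in introns of another gene, so neither gene is in this count. All 3 of TNFSF8, and some of TNFSF18, nevertheless overlap the RefSeq span of the member. Any peak that overlaps the gene away from its starts, whatever its assignment, was found at 30 genes (73.2%), against 61.4%. Shares of body peaks were nearer to each other across the classes than shares of start peaks, with few genes in each class. The peaks at starts and in bodies also differed in length. A start peak of at least the list's median length, 539 bases, was found at 27 genes (65.9%), against 65.0%, and a body peak of at least that length at 20 genes (48.8%), against 32.9%. Among genes with an assigned peak such a body peak was found at 20 of 40 members, against 38.4%. Of the 41 genes, 15 had both kinds of peak, 14 a start peak without a body peak, 7 a body peak without a start peak, and 5 neither.

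**Figure D1:**
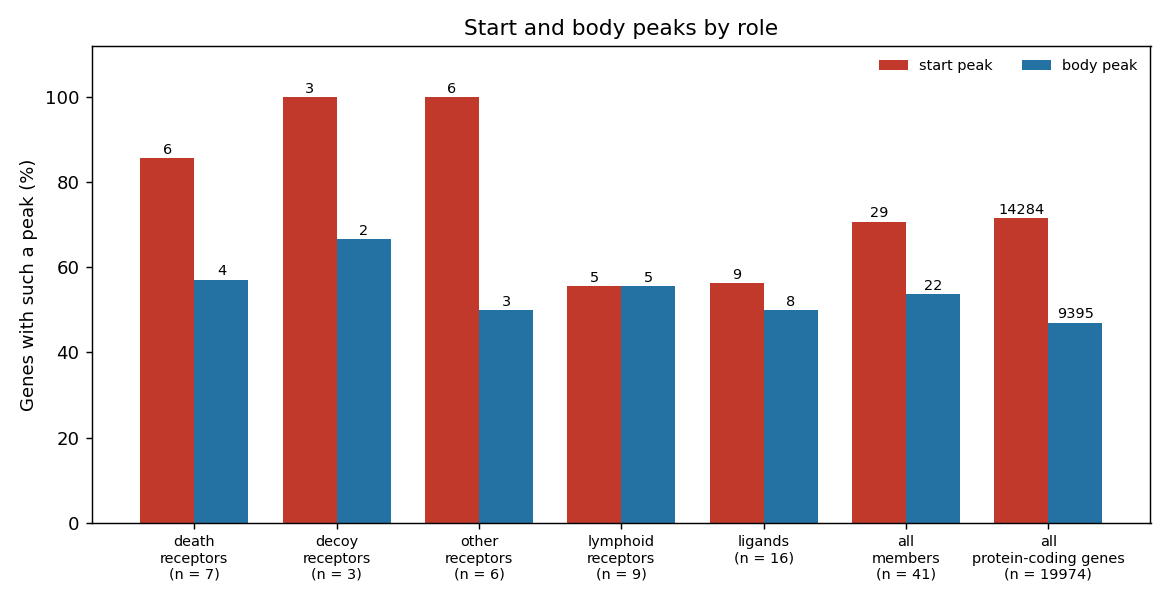
Share of genes, in percent, with a start peak and with a body peak, for death, decoy, lymphoid and other receptors and for ligands, with all protein-coding genes beside them. Lymphoid receptors (55.6%) and ligands (56.2%) have the lowest shares with a start peak, while the body shares of the 5 classes stand closer together; the bars are counts over genes and carry no replicate error.

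Death receptors were led by FAS, the receptor for FAS ligand. Its start was covered by a peak of 1907 bases (chr10:88990163-88992069, build hg38), which also lies within 1000 bases of starts of ACTA2 and the antisense gene FAS-AS1. It was the 1 start peak of the family that also lies that close to a start of another gene in the RefSeq promoter table, which does not hold every gene. The other 2 peaks assigned to FAS lie 10846 and 14638 bases upstream of that start. TNFRSF10A and TNFRSF10B, which encode the TRAIL receptors DR4 and DR5, had start-covering peaks of 1633 bases (chr8:23223829-23225461) and 1215 bases (chr8:23068506-23069720). By the listed distances, starts of other identifiers lie inside the 1633-base peak of TNFRSF10A and within 1000 bases of the 1215-base peak of TNFRSF10B. TNFRSF10B had 3 more start peaks, of 209, 234 and 363 bases, at starts inside the gene.

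TNFRSF21, which encodes death receptor 6, had a start peak of 1553 bases (chr6:47308706-47310258) and 3 intron peaks between 16530 and 66876 bases downstream of the start. TNFRSF1A, the main receptor for soluble TNF, had a shorter start-covering peak, 689 bases (chr12:6341670-6342358). The longest peak assigned to TNFRSF1A was another one, 1667 bases at chr12:6335747-6337413, which lies 1503 bases upstream of an annotated start inside the gene. TNFRSF25, the receptor for TL1A, had 2 start peaks of 347 and 866 bases, both at inner starts and none within 1000 bases of its outermost start.

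NGFR, the neurotrophin receptor p75, was the death receptor without a start peak. Its 2 assigned peaks lay 12566 and 15661 bases upstream of it. A further 3 peaks of 317, 410 and 1038 bases overlap the NGFR gene, but the list assigns all 3 to other identifiers. The nearest of these begins 2732 bases into the gene.

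The 3 decoy receptors all lie on chromosome 8. TNFRSF10C and TNFRSF10D, which encode TRAIL receptors without a working death domain, had start-covering peaks of 1237 bases (chr8:23102641-23103877) and 1336 bases (chr8:23163143-23164478). TNFRSF11B encodes osteoprotegerin, a secreted receptor that captures RANK ligand and TRAIL, and its start-covering peak measured 1206 bases (chr8:118951423-118952628). TNFRSF11B had 13 assigned peaks, the most of any gene of the family, and they reached 82389 bases downstream of an annotated start inside the gene. Only 4 of the peaks in the list overlap its gene span, so most of its count lies in the flanks.

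The 6 other receptors include the longest start peak of the family. TNFRSF12A, the receptor for TWEAK, had 1 peak of 1957 bases (chr16:3020193-3022149), which covers 88.4% of its short gene. LTBR, the lymphotoxin beta receptor, had a start peak of 1597 bases (chr12:6383488-6385084). RELT, a receptor named for its expression in lymphoid tissue, had 2 start-covering peaks of 1573 and 1172 bases, the second at a start inside the gene. All 3 genes thus had a start peak longer than the median start peak of protein-coding genes, described further on.

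TNFRSF11A, which encodes RANK, had a start peak of 1457 bases (chr18:62324817-62326273) as its 1 assigned peak. Another 6 peaks overlap the TNFRSF11A gene and are assigned to other identifiers, so its single count understates the peaks within it. TNFRSF19, known as TROY, had a peak of 389 bases at its outermost start and a longer one of 1478 bases at an inner start, with 3 intron peaks. TNFRSF1B, the TNF receptor that responds best to membrane-bound TNF, had a start peak of 637 bases and 4 intron peaks, of which the longest measured 1498 bases (chr1:12177970-12179467).

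Among the lymphoid receptors, the genes that co-stimulate T cells or keep B cells alive, only TNFRSF9 and CD40 had a peak over a start. TNFRSF9, which encodes 4-1BB, had a peak of 1408 bases (chr1:7940613-7942020), of which 1154 bases lie upstream and 253 downstream of the start. CD40, the receptor by which B cells and dendritic cells receive T cell help, had 2 covering peaks of 1047 and 804 bases and 7 peaks in all. The other 4 start peaks of the class, at 3 genes, did not cover a start. TNFRSF4, which encodes OX40, had a peak of 343 bases that lies 84 bases upstream of an annotated inner start, and so inside the RefSeq gene. TNFRSF13C, the BAFF receptor, had 2 peaks of 573 and 253 bases within 1000 bases downstream of the start. TNFRSF13B, which encodes TACI, had 1 start peak of 181 bases at an inner start, the shortest start peak of the family.

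Start peaks were missing at 4 lymphoid receptors. CD27 had no assigned peak at all, and a 1516-base peak over its far end (chr12:6451178-6452693) is assigned to another identifier and lies within 1000 bases of starts of TAPBPL and CD27-AS1. TNFRSF17, which encodes BCMA of plasma cells, had 1 assigned peak, 8647 bases away and in an exon of another gene. TNFRSF18, which encodes GITR, had peaks just outside the window, the nearest 1103 bases upstream of the start. TNFRSF8, which encodes CD30, differed from these in having 6 body peaks, the most of any gene of the family, with lengths of 302 to 1634 bases, and a further 7 overlapping peaks assigned to other identifiers. In TNFRSF8 the list thus holds many peaks inside the gene and none within 1000 bases of a start of TNFRSF8 itself.

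Among the ligands, a peak covered a start at TNFSF9, TNFSF10, TNFSF12, TNFSF13, TNFSF13B, TNFSF14, TNFSF15 and CD70. TNFSF12 encodes TWEAK and had the longest of these, 1482 bases (chr17:7548513-7549994). TNFSF13B, which encodes the B cell factor BAFF, followed with 1302 bases (chr13:108269445-108270746). TNFSF9, the ligand of 4-1BB, had a peak of 1060 bases (chr19:6530450-6531509). At the other end, CD70, the ligand of CD27, had a peak of 634 bases, and TNFSF13, which encodes APRIL, 680 bases. The 634-base peak of CD70 covers an annotated start that lies upstream of its RefSeq gene and outside it. Near the RefSeq start of CD70 lies a peak of 432 bases, 133 bases downstream of an annotated start and not over it.

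TNFSF10, which encodes TRAIL, had a start-covering peak of 764 bases (chr3:172523046-172523809). TNFSF15, which encodes TL1A, had a peak of 1004 bases over its outermost start, and TNFSF14, which encodes LIGHT, had 823 bases over a start with a second start peak of 606 bases. LTB, the membrane partner of lymphotoxin alpha, had 1 peak of 1133 bases that lies 591 bases downstream of its start and covers 60.7% of the gene. These 9 ligands were the ones with a start peak.

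No start peak was assigned to TNF, LTA, FASLG, TNFSF4, TNFSF8, TNFSF11 or TNFSF18. TNF, the founding cytokine of the family, had 1 assigned peak, 275 bases long and 2975 bases downstream of its start, beyond the end of the gene. LTA, which encodes lymphotoxin alpha, had 1 assigned peak, 8442 bases upstream of an annotated start. A peak of 1925 bases (chr6:31558910-31560834) overlaps the outermost RefSeq start of LTA and is assigned to another identifier, so LTA has a peak there under a count that ignores the assignment.

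FASLG, the ligand of FAS, had 8 assigned peaks, the nearest 3296 bases downstream, in intron 2, and 1579 bases long (chr1:172662440-172664018). TNFSF11, which encodes RANK ligand, had 6, the nearest 20313 bases from a start. TNFSF4, the OX40 ligand, had 7, with an intron peak of 1315 bases and the nearest peak 2555 bases from a start. Its RefSeq gene spans 277864 bases and is overlapped by 19 peaks, of which 12 are assigned to other identifiers. TNFSF18, the GITR ligand, had 7, of which 2 lie 1533 bases downstream and 1633 bases upstream of the start. TNFSF8, the CD30 ligand, had 4, the nearest 2686 bases upstream of an annotated start. Missing start peaks at these 5 ligands thus went with several peaks further away. A missing peak means only that the list analysed here holds none at that place.

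**Figure D2:**
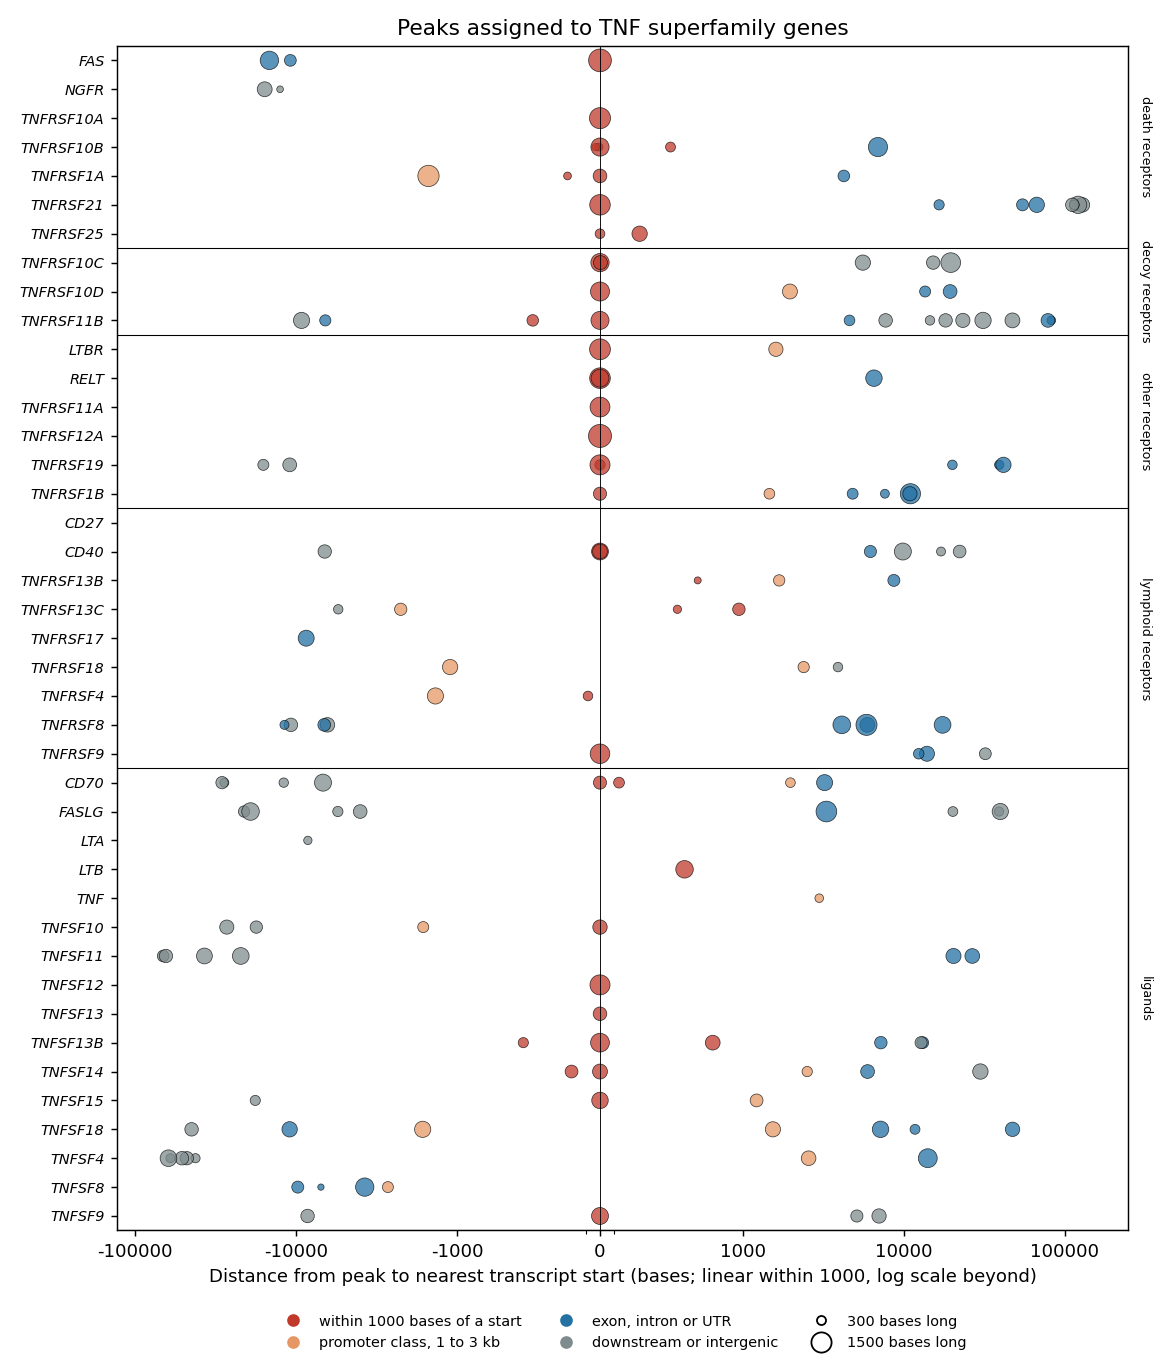
Peaks assigned to each of the 41 genes, one row per gene in role classes, by distance from the nearest annotated start of the gene in bases (negative upstream). The 4 lymphoid receptors and 7 ligands without a peak within 1000 bases of a start, and NGFR among the death receptors, leave the middle of their rows empty; CD27 has no peak.

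Ligands and their receptors were then set side by side. In 26 textbook pairs of a ligand with a receptor, chosen with the values known, both genes had a start peak in 13 pairs. The receptor alone had one in 8 pairs, the ligand alone in 3, and neither in 2. TRAIL and all 5 of its receptors had start peaks, and so did LTB and LIGHT with LTBR, and TWEAK with its receptor TNFRSF12A. The pairs with a start peak on the receptor alone were those of TNF and LTA with TNFRSF1A and TNFRSF1B, FASLG with FAS, TNFSF11 with TNFRSF11A and TNFRSF11B, and TNFSF4 with TNFRSF4. The ligand alone had one for CD70 with CD27, and for TNFSF13 and TNFSF13B with TNFRSF17. The pairs with neither were the CD30 and GITR pairs. Pairs share genes, with 5 of the 13 pairs from TRAIL, so these counts are a description. Of all protein-coding genes 71.5% had a start peak, and no share was computed for pairs of other genes. A matching of ligands with their receptors can therefore not be read from the counts.

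Several members are neighbours. The TRAIL receptor genes TNFRSF10B, TNFRSF10C, TNFRSF10D and TNFRSF10A lie within 205 kb of chromosome 8, which held 25 peaks with a median length of 995 bases, and all 4 had a start peak. LTA, TNF and LTB lie within 21.8 kb of chromosome 6, which held 4 peaks, and only LTB had a start peak. TNFSF9, CD70 and TNFSF14 lie within 140 kb of chromosome 19, which held 19 peaks, and all 3 had one. TNFSF18 and TNFSF4 lie within 412 kb of chromosome 1, which held 30 peaks without a start peak at either gene. Neighbours thus differed in both directions, with the spacing of peaks ranging between 0.729 per 10 kb at TNFSF18 and TNFSF4 and 2.39 per 10 kb at TNFSF12 and TNFSF13.

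Peaks of the family were spread over several places. Of the 166 peaks, 44 (26.5%) were start peaks, against 19.8% of the whole list. Another 18 (10.8%) lay between 1000 and 3000 bases of a start, against 10.6%. Body peaks made up 47 (28.3%), against 38.8%. The list classed 57 (34.3%) as outside genes or just downstream of them, against 30.8%. Among the 47 body peaks, the list places 12 in an intron or exon of another gene, which can overlap the member. By the list's class, ligands had 30 of their 67 peaks outside genes (44.8%), and receptors 27 of 99 (27.3%). The ligand count includes 5 peaks of TNFSF4 that are classed as intergenic but lie inside its RefSeq span. Ligand genes are short, with a median length of 10621.5 bases, against 24170.5 bases for all protein-coding genes, and the lymphoid receptors shorter still, at 7822 bases; the part of gene length in these shares was not tested.

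The genes had a median of 4 assigned peaks, against 3 for all protein-coding genes. Per 10 kb of gene, the median number of overlapping peaks was 1.41 for the family and 0.902 for all protein-coding genes, while the median gene length was 16407 bases for the family. Body peaks of the family had a median length of 702 bases, against 495 bases for body peaks of the whole list. Peaks outside genes had 665 bases, against 508 bases. Start peaks had 814.5 bases, against 856 bases. The 28 peaks that cover a start had 1210 bases, against 1106 bases, so median lengths stood above those of the list in bodies, outside genes and over starts, and below it for the wider class of start peaks.

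The longest start peak of each gene was compared by class. Its median over the 29 genes with one was 1206 bases, against 1231 bases for all protein-coding genes with one, and 13 of the 29 genes lay above that value. By class the medians were 1384 bases for death receptors, 1237 bases for decoy receptors, 1526 bases for other receptors, 573 bases for lymphoid receptors and 1004 bases for ligands. The longest peaks stood at TNFRSF12A, FAS, TNFRSF10A, LTBR, RELT and TNFRSF21, all of them receptors. Peaks of the family that cover a start reached further into the gene than out of it. Of 28 such peaks, 23 (82.1%) were longer downstream of the start, against 57.1% of the 20312 peaks of the list that cover a start. Their median reach was 351 bases upstream and 716.5 bases downstream, against 455 and 551 bases in the list.

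**Figure D3:**
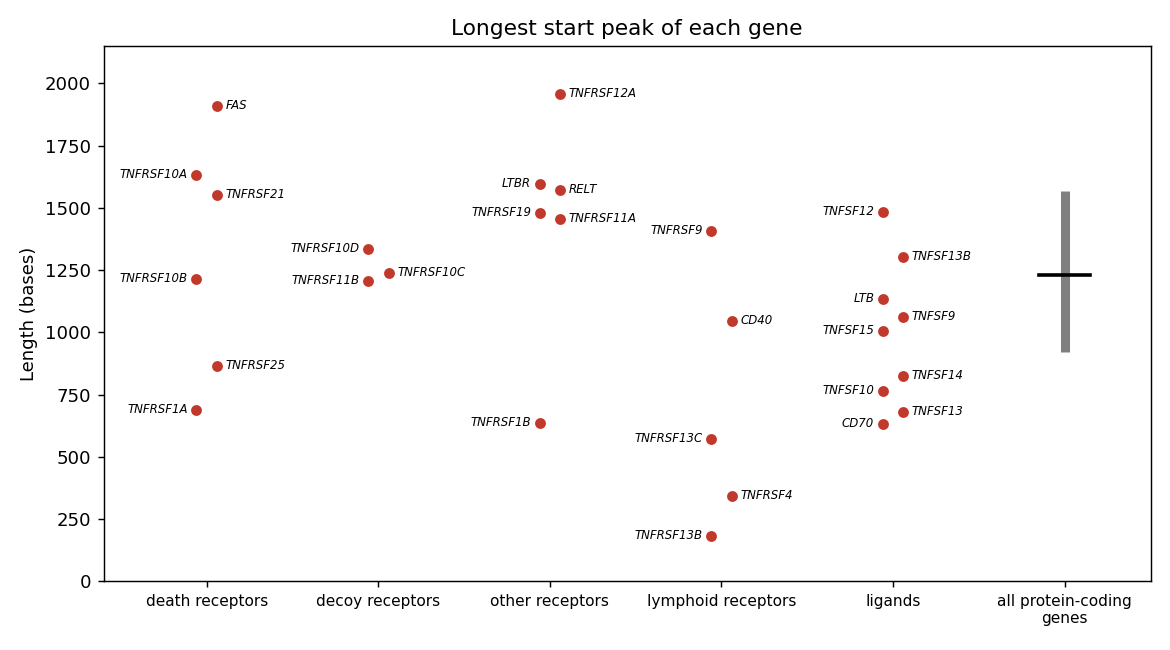
Length in bases of the longest start peak of each gene with one, by role class, 1 point per gene, and at the right the median (line) and quartiles (bar) over all protein-coding genes. The other receptors have the highest median, 1526 bases, and the lymphoid receptors the lowest, 573 bases, with TNFRSF13B at 181 bases at the bottom.

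The sequence of the starts was read from RefSeq promoter windows of 300 bases, 250 before and 50 after a start, on GRCh38.p14. A CpG is a C followed by a G, and the CpG ratio is the number found over the number expected from the C and G content; CpG-rich starts are usually those of widely used genes. Windows were found for 27 of the 41 genes, 14 receptors and 13 ligands, and for 15812 protein-coding genes. The genes without a window are CD40, CD70, NGFR, TNFRSF10A, TNFRSF10B, TNFRSF10C, TNFRSF10D, TNFRSF11B, TNFRSF12A, TNFRSF13C, TNFRSF17, TNFRSF4, TNFSF12 and TNFSF8. The sequence is that of the reference genome and not of these cells.

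The next 8 windows are shown because they put the receptors and ligands with and without peaks beside their CpG content, with every CpG in capitals, each on its own strand and 5′ to 3′. LTBR (chr12:6383912-6384211, plus strand), TNFRSF21 (chr6:47309856-47310155, minus strand) and TNFSF9 (chr19:6530776-6531075, plus strand) are CpG-rich and lie wholly inside a peak. TNFRSF18 (chr1:1206543-1206842, minus strand) is CpG-rich without a peak over it. TNFRSF1A (chr12:6342027-6342326, minus strand) and TNFSF13B (chr13:108269379-108269678, plus strand) are CpG-poor with a peak over them, and TNF (chr6:31575315-31575614, plus strand) and FASLG (chr1:172658853-172659152, plus strand) have no peak.
LTBR: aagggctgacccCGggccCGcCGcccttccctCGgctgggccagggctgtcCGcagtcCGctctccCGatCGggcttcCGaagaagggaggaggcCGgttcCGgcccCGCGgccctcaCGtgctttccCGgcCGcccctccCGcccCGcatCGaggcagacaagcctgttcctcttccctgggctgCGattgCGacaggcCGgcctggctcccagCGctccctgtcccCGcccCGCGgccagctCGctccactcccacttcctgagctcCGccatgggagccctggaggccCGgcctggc
TNFRSF21: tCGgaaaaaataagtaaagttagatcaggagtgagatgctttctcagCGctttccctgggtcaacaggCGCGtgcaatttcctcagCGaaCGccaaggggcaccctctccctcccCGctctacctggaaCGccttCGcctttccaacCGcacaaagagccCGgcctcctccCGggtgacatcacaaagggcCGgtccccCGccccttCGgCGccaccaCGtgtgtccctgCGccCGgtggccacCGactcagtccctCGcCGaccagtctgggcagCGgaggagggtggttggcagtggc
TNFSF9: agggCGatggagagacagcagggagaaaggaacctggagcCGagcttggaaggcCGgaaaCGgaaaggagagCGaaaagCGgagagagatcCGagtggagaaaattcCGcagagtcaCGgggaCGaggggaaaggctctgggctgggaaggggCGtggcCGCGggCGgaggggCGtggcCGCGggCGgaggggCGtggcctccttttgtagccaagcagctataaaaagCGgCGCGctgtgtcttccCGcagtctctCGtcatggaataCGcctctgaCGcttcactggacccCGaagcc
TNFRSF18: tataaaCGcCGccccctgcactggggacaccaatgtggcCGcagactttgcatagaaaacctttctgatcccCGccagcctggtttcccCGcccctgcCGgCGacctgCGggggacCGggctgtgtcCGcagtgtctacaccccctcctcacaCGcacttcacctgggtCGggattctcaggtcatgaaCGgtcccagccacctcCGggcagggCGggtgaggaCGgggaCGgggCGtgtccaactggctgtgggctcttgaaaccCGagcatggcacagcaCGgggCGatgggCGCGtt
TNFRSF1A: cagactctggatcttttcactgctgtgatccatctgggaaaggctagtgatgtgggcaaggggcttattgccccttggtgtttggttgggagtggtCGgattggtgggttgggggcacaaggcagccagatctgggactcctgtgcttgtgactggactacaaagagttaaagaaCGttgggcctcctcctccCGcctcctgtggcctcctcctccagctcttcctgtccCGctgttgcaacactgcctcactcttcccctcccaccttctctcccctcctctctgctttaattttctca
TNFSF13B: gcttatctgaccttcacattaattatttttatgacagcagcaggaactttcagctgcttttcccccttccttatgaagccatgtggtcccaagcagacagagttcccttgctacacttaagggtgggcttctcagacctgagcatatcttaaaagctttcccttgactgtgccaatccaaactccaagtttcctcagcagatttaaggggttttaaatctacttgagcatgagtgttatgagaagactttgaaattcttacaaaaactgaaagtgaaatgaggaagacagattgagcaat
TNF: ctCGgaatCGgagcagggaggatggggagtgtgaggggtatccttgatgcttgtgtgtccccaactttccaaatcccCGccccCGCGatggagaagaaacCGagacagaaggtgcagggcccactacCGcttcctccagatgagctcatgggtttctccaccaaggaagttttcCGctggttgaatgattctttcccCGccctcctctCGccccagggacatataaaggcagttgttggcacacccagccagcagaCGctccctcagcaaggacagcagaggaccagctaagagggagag
FASLG: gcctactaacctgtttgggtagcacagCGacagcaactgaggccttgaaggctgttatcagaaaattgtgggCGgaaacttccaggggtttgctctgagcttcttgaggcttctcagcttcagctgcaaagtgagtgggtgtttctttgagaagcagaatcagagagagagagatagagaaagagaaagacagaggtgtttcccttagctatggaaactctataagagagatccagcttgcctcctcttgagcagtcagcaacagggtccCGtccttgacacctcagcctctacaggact

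The window of LTBR holds 29 CpGs at a ratio of 0.724, that of TNFRSF21 23 at 0.777, and that of TNFSF9 27 at 0.964. TNFRSF18 has 23 CpGs at a ratio of 0.712, close to these, and no peak over its window. TNFRSF1A has 4 CpGs at 0.174 and all 300 bases in a peak, and TNFSF13B has 0 CpGs with 234 bases in a peak. TNF has 11 CpGs at 0.441, and FASLG has 3 at 0.166. CpG content and peaks thus went apart in both directions among these selected windows. Over all 27 family windows the median ratio was higher with a peak over the window (0.524) than without (0.268). For all protein-coding windows these medians were 0.84 and 0.311. A ratio of at least 0.6 was found in 7 of the 14 family windows with a peak and in 2 of the 13 without.

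Over the 27 windows the median CpG ratio was 0.347, against 0.763 for all protein-coding windows. It was 0.658 for the 14 receptors and 0.259 for the 13 ligands. A ratio of at least 0.6 was found in 8 receptor windows and in 1 ligand window, that of TNFSF9, against 65.8% of all windows. Peaks overlapped 14 of the 27 windows (51.9%), against 68.4% of all, in 9 of 14 receptors (64.3%) and 5 of 13 ligands (38.5%). Across all windows the overlapped share was 17.6% below a ratio of 0.2 and 89.8% at 0.8 or more. Family windows below 0.2 were overlapped in 3 of 8 cases, which are TNFRSF1A, TNFSF10 and TNFSF13B, and those at 0.8 or more in 2 of 2, RELT and TNFSF9.

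**Figure D4:**
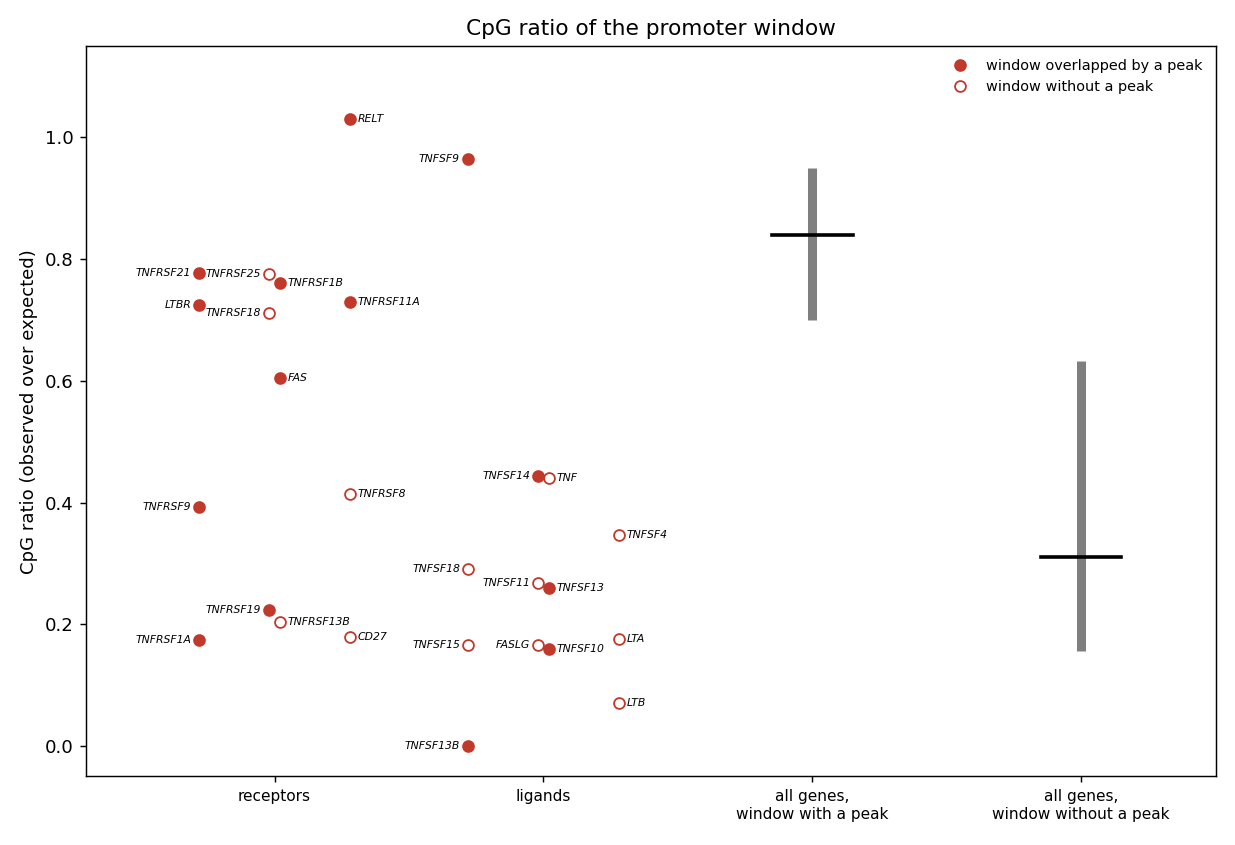
CpG ratio of the 300-base promoter window of 14 receptors and 13 ligands, with the median (line) and quartiles (bar) of all protein-coding windows, split by whether a peak overlaps them. Filled points are windows that a peak overlaps and open points those without; ligand windows lie at a median of 0.259 and receptor windows at 0.658, and overlapped points occur at low ratios in both.

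Short motifs were searched on both strands of the same windows, as descriptions of letters and not of sites in use. The AP-1 type motif TGANTCA was found in 6 of the 27 windows (22.2%), against 5.76% of all windows. The 6 genes were CD27, FAS, TNFRSF8, TNFRSF9, TNFSF14 and TNFSF15. It reads TGAATCA in CD27 and FAS and TGAGTCA in the others. Windows with and without a peak held it alike, in 3 of 14 (21.4%) and 3 of 13 (23.1%). A peak overlapped the windows of FAS, TNFRSF9 and TNFSF14, which are shown next with the motif in capitals and other letters in lower case.
FAS: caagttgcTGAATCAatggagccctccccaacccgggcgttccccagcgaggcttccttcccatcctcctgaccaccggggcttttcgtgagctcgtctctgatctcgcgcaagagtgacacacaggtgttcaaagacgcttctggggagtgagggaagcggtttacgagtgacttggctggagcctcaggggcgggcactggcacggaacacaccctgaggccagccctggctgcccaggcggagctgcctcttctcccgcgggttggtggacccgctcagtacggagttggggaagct
TNFRSF9: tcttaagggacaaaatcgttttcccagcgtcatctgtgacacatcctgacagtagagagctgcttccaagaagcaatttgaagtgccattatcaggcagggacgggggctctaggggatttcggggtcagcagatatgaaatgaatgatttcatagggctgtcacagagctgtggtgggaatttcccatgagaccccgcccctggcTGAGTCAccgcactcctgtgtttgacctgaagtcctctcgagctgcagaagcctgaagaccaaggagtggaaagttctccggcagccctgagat
TNFSF14: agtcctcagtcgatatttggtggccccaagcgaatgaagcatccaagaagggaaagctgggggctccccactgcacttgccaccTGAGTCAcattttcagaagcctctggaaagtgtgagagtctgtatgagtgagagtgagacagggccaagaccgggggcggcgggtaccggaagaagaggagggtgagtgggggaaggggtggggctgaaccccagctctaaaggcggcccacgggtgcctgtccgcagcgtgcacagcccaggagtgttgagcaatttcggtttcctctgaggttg

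The motif begins 242 bases before the start in FAS (chr10:88990548-88990847, plus strand), where it reads TGAATCA. In TNFRSF9 (chr1:7940790-7941089, minus strand) it begins 44 bases before the start and reads TGAGTCA, as it does 166 bases before the start in TNFSF14 (chr19:6670111-6670410, minus strand). Peaks cover all 300 bases of the FAS and TNFRSF9 windows and 238 bases of the TNFSF14 window.

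The other motifs stood closer to the background. The SP-type motif GGGCGG was in 16 windows (59.3%), against 58.5% of all, and the ETS-type motif CCGGAA in 4 (14.8%), against 22.8%. Both of these motifs contain a CpG. The TATAAA motif was in 4 windows (14.8%), those of TNF, TNFRSF18, TNFSF10 and TNFSF9, against 9.64%. An NF-kappaB type motif was in 4 windows (14.8%), those of LTB, TNFRSF25, TNFRSF9 and TNFSF14, against 12.3%. In TNFRSF9 and TNFSF14 the AP-1 type and NF-kappaB type motifs stood in the same window.

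The proteins that carry the signal inside the cell were counted from a list of 32 genes. A start peak was found at 30 of them (93.8%), against the 71.5% of all protein-coding genes. RIPK3, the kinase of necroptosis, had no assigned peak, and TRAF6, an adaptor shared with Toll-like receptors, had its nearest assigned peak 2906 bases away, while a peak assigned to another identifier lies within 1000 bases of its outermost start. The longest start peaks were those of BID, a BCL2-family protein cut by caspase 8, at 2711 bases, of TNIP1, a partner of the NF-kappaB brake A20, at 2507 bases, and of TRADD, the death domain adaptor, at 2225 bases. Among the receptors the same count was 20 of 25, and among the ligands 9 of 16.

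The label of the cells was checked with start peaks at marker genes. All 8 mesenchymal and basal markers had one, the longest at FOXC1, EGFR and MSN, as did 7 of 8 luminal markers (not SPDEF), the longest at PGR, KRT8 and FOXA1, so start peaks did not separate these lists. Leukocyte markers had one at 4 of 10, with none at CD3E, CD2, CD4, CD79A, MS4A1 or SPI1, and endothelial markers at 4 of 6, the longest at KDR, TIE1 and CDH5, with none at TEK or ERG, where 71.5% of all protein-coding genes had one. At the outermost start, whatever the assignment, the counts were 8 of 8 mesenchymal and basal, 6 of 8 luminal, 2 of 10 leukocyte and 1 of 6 endothelial markers, against 70.7%. Leukocyte markers (40.0%) thus stood below the lymphoid receptors (55.6%) and ligands (56.2%), and the part of the cells' type in the counts of the family was not tested.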

How the data were processed

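ATAC-seq was measured in 5 ARID1A knockout and 5 control libraries of MDA-MB-231 cells. The authors used Bowtie2 2.3.5.1 for alignment to hg38 and MACS2 2.2.6 for peaks, per the submitters' processing notes. Not given in the sources used here are the thresholds, read shifting, duplicate handling, merging of peaks and annotation release, and these set the number and length of every peak. The deposited list holds 161934 peaks in 17 columns, which per the file headers are positions, lengths in bases, an annotation class and the distance to the nearest transcript start. The listed distance was recomputed and matched in 100% of rows.

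Symbols came from RefSeq genes of chromosomes 1 to 22 and X (assembly GRCh38.p14), paired with the list's identifiers by transcript start within 2000 bases on the same strand, or else by largest overlap. This gave 17158 of 19974 protein-coding genes (85.9%) and 40 of 41 members, 25 by start and 15 by overlap. The smallest overlap was 0.284 of the union, for TNFSF8, among those paired by overlap, and 0.0849, for TNFSF4, among those paired by start. An unpaired gene counts as one without a peak. A nearest-transcript assignment does not show that a distal peak acts on the gene. Copy number was not measured.

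Everything reported is a count or a median; the planned test of knockout against control needs a value per library and was not run. The lookups were tested on simulated intervals. The members, classes, pairs and lists were chosen with earlier results of these data known. All 41 members are named; of the other lists, the genes without a start peak and the 3 with the longest, except in the leukocyte list, where 1 result is not reported here; other genes only where a peak assigned to a member or overlapping it lies at their start. Computation used Python 3.11.15, numpy 2.4.6, pandas 2.3.3 and matplotlib 3.10.9.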

Additional observations from a re-analysis of the deposited data

How the results depend on the processing

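Of 79 values recomputed under another choice, 66 stayed within 1.5 times the reported value and 13 moved further. Counting only peaks of at least the list's median length of 539 bases gave 108 peaks in all with a median of 2 per gene, 14 for death receptors, 20 with a median of 1 for lymphoid receptors, and 13 for other receptors; lymphoid receptors with a start peak then numbered 3, and 2 when the peak had to cover the start. Counting every peak that overlaps the gene, whatever its assignment, gave 10 for decoy receptors and medians of 5 for other receptors and 2 for ligands, and 5 other receptors with a body peak. At the outermost RefSeq start, ligands (62.5%) had a peak more often than death receptors (57.1%), unlike at any annotated start. Over windows that a peak overlaps, the median CpG ratio was 0.524. The counts by starts of the promoter table were added after seeing the data. So were those by body peaks in the member's own exons or introns, or in untranslated regions within its span. No paired analysis was possible because no peak has a value for each library, and leaving out replicates could not be run for the same reason. Depth is unknown, so an absent peak and one below detection cannot be told apart.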
